A study of Mus musculus with 10 samples.

Results

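Protein phosphatase 1 (PP1) is brought to glycogen by a family of targeting subunits, and 7 genes of this family, Ppp1r3a to Ppp1r3g, were examined in cultured mouse testes together with Epm2a and Nhlrc1, which encode laforin and malin. The 9 genes were chosen by symbol for their known roles, and all 9 were found among 24470 gene entries. To ask how block of glycogen breakdown acts on the fetal testis, the study cultured male gonads of C57BL/6 embryos, taken at E12.5 with the mesonephros attached, for 48 h. From each of 5 embryos, named mice M1 to M5, 1 gonad received GPI (a small-molecule inhibitor of glycogen phosphorylase) at 75 µM and the other gonad received the vehicle, DMSO. The testis was then dissected from the mesonephros and its RNA was sequenced, so each library holds all cell types of the testis, and the inhibitor reached all of them. The 5 vehicle libraries held 10203679 to 15590223 counts and the 5 GPI libraries 11025409 to 15635322.

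Glycogen synthase is active when phosphate is removed from it, and glycogen phosphorylase is active when phosphate is added. A PP1 targeting subunit binds glycogen, the PP1 catalytic subunit and these enzymes at once, and thereby favors storage over breakdown. Laforin removes phosphate from glycogen itself, and malin, its partner, is a ubiquitin ligase whose known targets include the Ppp1r3c protein. Glycogen deposits are a known early feature of the Sertoli cells of the developing testis.

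Ppp1r3c fell and Ppp1r3a rose in GPI-treated testes, and neither change was beyond the range of the vehicle testes in every mouse. Values named normalized counts are TMM-scaled by edgeR and brought to 1 library size. A gene was called when edgeR's quasi-likelihood test, paired by mouse, gave an adjusted p under 0.05. Of the 9 genes, 8 passed the low-count filter and Ppp1r3g did not. Among the 8 tested genes, 2 were called, beside 22.9% of all 13941 genes tested, so their number lies near the background. Higher with GPI was 1 of the 8 genes (11.1% of all tested genes) and lower was 1 (11.9%). In 0 of the 8 were the GPI and vehicle values separate, against 16.1% of all tested genes, and 1 of the 8 moved the same way in 5 of 5 mice, against 30.5%. The median log2 fold change was -0.20 over the 8 genes and 0.02 over all tested genes. The median biological coefficient of variation of the paired fit was 32.1% for the 8 genes and 15.4% for all tested genes. The genes were not matched for level.

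**Figure D1:**
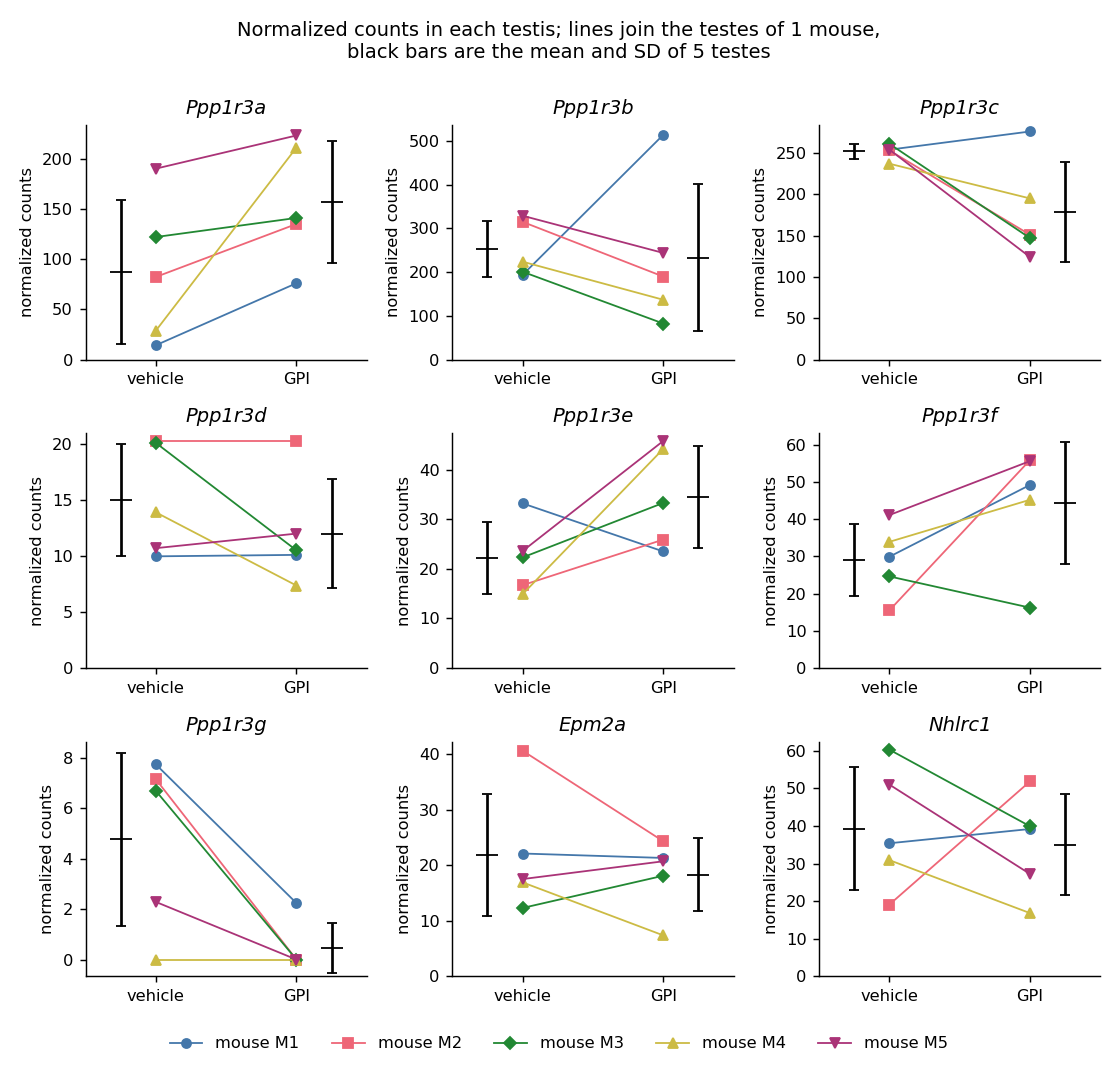
Normalized counts (vertical axes) of the 9 genes in vehicle and GPI testes, with a line joining the testes of 1 mouse and black bars for the mean and SD of 5 testes. The vehicle values of Ppp1r3c lie close together, from 237 to 261, and its GPI values spread from 124 to 276.

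To compare genes with each other, TMM-scaled CPM values (counts relative to library size) were divided by transcript length and are given as CPM per kilobase. In vehicle testes Ppp1r3c had the highest level of the 9 genes, 7.5 ± 0.266 (SD, n = 5), and Ppp1r3b the next, 4.67 ± 1.2 (SD, n = 5). The values of these genes did not overlap each other, nor did those of Ppp1r3b overlap the third gene, Nhlrc1, at 1.39 ± 0.58 (SD, n = 5). Then came Ppp1r3a at 1.02, Ppp1r3e at 0.919, Epm2a at 0.541, Ppp1r3f at 0.494, Ppp1r3d at 0.372 and Ppp1r3g at 0.162, each a mean level per length whose range overlapped that of its neighbors. Among tested genes with a known length, 56.8% lay below Ppp1r3c in vehicle testes and 3.34% below Ppp1r3d. Ppp1r3c thus made up 44.4% ± 4.58 (SD, n = 5) of the summed level of the 9 genes in vehicle testes and 34% ± 6.69 (SD, n = 5) in GPI testes. The share of Ppp1r3a was 5.59% ± 4.09 (SD, n = 5) in vehicle testes and 12.6% ± 5.5 (SD, n = 5) in GPI testes. With GPI the order was Ppp1r3c (5.32), Ppp1r3b (4.32), Ppp1r3a (1.83), Ppp1r3e (1.43), Nhlrc1 (1.24), Ppp1r3f (0.758), Epm2a (0.453), Ppp1r3d (0.299) and Ppp1r3g (0.0152), again as mean level per length, and only the last neighbors did not overlap. With the union of exons, Nhlrc1 came before Ppp1r3e in GPI testes, with mean shares of 9.19% and 8.44%. Ppp1r3c was the leading gene in 5 of 5 vehicle testes. In the GPI testes of M1 and M5 the leading gene depended on the length used. With the longest transcript it was Ppp1r3b, with 41.9% and 29.3% of the summed level. With the union of exons it was Ppp1r3c in all 10 testes, with 42% against 34.2% for Ppp1r3b in M1 and 27.2% against 23.4% in M5.

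**Figure D2:**
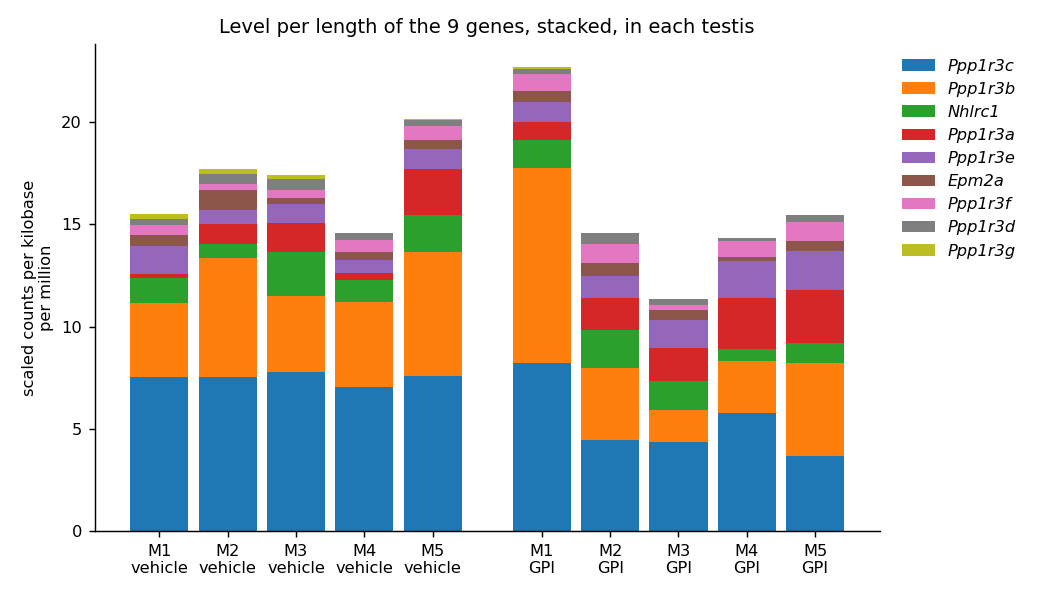
Level per length of the 9 genes (vertical axis, CPM per kilobase) stacked for each of the 10 testes. Ppp1r3c forms the largest block in each vehicle testis, 37.6% to 48.7% of the sum, and Ppp1r3b the largest in the GPI testes of M1 and M5 with the longest-transcript lengths drawn, but not with the union of exons.

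Ppp1r3c, also called protein targeting to glycogen, is the widely expressed member of the family (Entrez Gene 53412, minus strand of chromosome 19 from 36731731 to 36736604, mm10). In the vehicle testes of M1 to M5 it had 254, 253, 261, 237 and 254 normalized counts, and in the GPI testes of the same mice 276, 151, 147, 195 and 124. The GPI testes of M2, M3, M4 and M5 all lay below the lowest vehicle testis, and that of M1 lay above the highest, so the groups overlapped through M1 alone. Vehicle testes averaged 252 ± 8.93 (SD, n = 5) and GPI testes 179 ± 60.3 (SD, n = 5). Ppp1r3c fell by 0.55 on the log2 scale (standard error 0.16, edgeR adjusted p = 0.0262, lower in 4 of 5 mice). Without the pairing by mouse, that is with no replicate block, its log2 fold change was -0.50 and edgeR's adjusted p 0.0531. The call was also lost without M2, M3 or M5 (adjusted p of 0.0829, 0.1 and 0.112), and without M1 the log2 fold change was -0.74 (edgeR adjusted p = 0.00269). Over 12 alternatives its adjusted p ran from 0.00269 to 0.112, and 8 of them called it (edgeR, DESeq2 and limma-voom).

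The promoters of the called genes, Ppp1r3c and Ppp1r3a, differ in base composition and are shown for that reason. RefSeq (GRCm38.p6) gave a promoter, 250 bases before to 50 after the start site, for 7 of the 9 genes, and none was used for Ppp1r3b and Ppp1r3e. The Ppp1r3c promoter lies at chr19:36736555-36736854 and that of Ppp1r3a at chr6:14755225-14755524, both on the minus strand. Capitals mark an E-box (CACGTG) in Ppp1r3c and the TATA box letters TATAAA, on either strand, in Ppp1r3a.
Ppp1r3c: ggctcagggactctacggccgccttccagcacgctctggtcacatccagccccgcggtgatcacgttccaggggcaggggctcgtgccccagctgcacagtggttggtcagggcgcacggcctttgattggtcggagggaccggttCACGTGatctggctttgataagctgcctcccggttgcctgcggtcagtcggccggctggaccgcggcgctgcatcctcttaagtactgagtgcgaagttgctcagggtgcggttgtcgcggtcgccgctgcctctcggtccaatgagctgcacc
Ppp1r3a: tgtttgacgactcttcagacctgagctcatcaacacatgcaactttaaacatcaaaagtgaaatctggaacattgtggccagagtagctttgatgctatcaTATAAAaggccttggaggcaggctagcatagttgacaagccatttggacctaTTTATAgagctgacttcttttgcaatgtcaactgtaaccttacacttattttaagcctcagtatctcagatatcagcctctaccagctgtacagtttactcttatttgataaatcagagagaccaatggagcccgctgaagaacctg
The Ppp1r3c promoter had 65.3% G and C and 26 CpG sites, and that of Ppp1r3a 41% and 2, the fewest among the 7, beside medians of 52.7% and 7 over 32851 promoters. The 5 others had 63% to 77% G and C. The E-box of Ppp1r3c began 104 bases before the start site, and 1 other of the 7, Ppp1r3d, held these letters, as did 7.15% of all promoters. TATAAA occurred in Ppp1r3a alone of the 7, 149 bases before the start site and, on the other strand, 97 before it, and in 13.6% of all promoters. CCAAT was found in Ppp1r3a, Ppp1r3c, Ppp1r3f and Ppp1r3g (37.4% of all promoters). The cAMP response element TGACGTCA was in 0 of the 7 (1.79% of all promoters), and its core TGACG was in Ppp1r3a, Ppp1r3d, Ppp1r3f, Ppp1r3g and Nhlrc1 (20.8%). In Ppp1r3d the E-box and a TGACG share 2 bases. Both strands were read for each motif, and a match describes letters only.

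Ppp1r3b, the subunit best known from liver (Entrez Gene 244416, plus strand of chromosome 8 from 35375741 to 35388139), had 194, 315, 201, 224 and 329 normalized counts in the vehicle testes of M1 to M5. Its GPI values were 514, 190, 82.7, 137 and 244 in the same order. GPI values were lower than vehicle in M2 to M5 and higher in M1, whose GPI testis was the highest of the 10, so the groups overlapped. The fitted log2 fold change was -0.34 (standard error 0.28, edgeR adjusted p = 0.444), which did not pass the threshold. Without M1 it was -0.79 with an edgeR adjusted p of 0.00182, and over the 12 alternatives adjusted p ran from 0.00182 to 0.846. The hepatocyte markers Alb, Afp and Ttr had at most 9 counts in any library, and Ttr had 0 in all 10. Ppp1r3b overlaps Gm45469, a noncoding RNA gene on the other strand, at its 5′ end, and counting without regard to strand cannot tell their reads apart.

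Ppp1r3a, the subunit of striated muscle (Entrez Gene 140491, minus strand of chromosome 6 from 14713822 to 14755274), varied widely among vehicle testes. It had 14.4, 82.3, 122, 28.9 and 190 normalized counts with vehicle in M1 to M5 and 76.1, 135, 141, 211 and 223 with GPI. M1 and M4 had the lowest vehicle values and the largest rises, and the groups overlapped. Mean counts were 87.6 ± 71.7 (SD, n = 5) in the vehicle group and 157 ± 60.5 (SD, n = 5) in the GPI group, and Ppp1r3a rose by 1.10 on the log2 scale (standard error 0.34, edgeR adjusted p = 0.0318, higher in 5 of 5 mice). Without the replicate block the log2 fold change was 0.82 and edgeR's adjusted p 0.246. DESeq2 gave an adjusted p of 0.0738 and limma-voom 0.0654, and without M1, M2 or M4 edgeR's adjusted p was 0.0701, 0.0628 and 0.118. Over the 12 alternatives its adjusted p ran from 0.00158 to 0.246, and 6 of them called it (edgeR).

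Markers of striated muscle were near 0: Ckm, Myog, Actn3 and Acta1 had at most 25 counts in any library, Ckm had 0 in 9 libraries, and Actn3 was the most abundant of the 4. Their summed level was 0.502, 0.101, 0.278, 0.28 and 0.557 CPM per kilobase with vehicle and 0.409, 0.615, 0.319, 0.262 and 0.569 with GPI. Fetal Leydig cell markers moved with Ppp1r3a. All 4 tested of 5 (Cyp17a1, Cyp11a1, Star and Hsd3b1) rose, with a median log2 fold change of 2.32, Hsd3b1 was the most abundant, and Insl3 had at most 7 counts and was 0 in 4 libraries. The Leydig list summed to 43.2, 97.8, 137, 69.4 and 186 CPM per kilobase in the vehicle testes of M1 to M5, the same order of mice as for Ppp1r3a. In the GPI testes it summed to 309, 333, 509, 592 and 433, and there the orders differed, with M5 highest for Ppp1r3a and M4 highest for the Leydig list. The vehicle order was noticed after the values were seen, and the part of Leydig cells in the rise of Ppp1r3a was not tested. In RNA of a whole testis, fewer or more cells of a type cannot be told apart from less or more RNA per cell.

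The other targeting subunits had low counts. Ppp1r3e (Entrez Gene 105651, chromosome 14 from 54875597 to 54877538) had 14.9 to 33.2 normalized counts with vehicle and 23.5 to 45.8 with GPI. Its log2 fold change of 0.65 (standard error 0.35, edgeR adjusted p = 0.219) did not pass the threshold, and M1 alone had the lower value with GPI. Ppp1r3f (Entrez Gene 54646, chromosome X from 7558562 to 7574281), a member found largely in brain, had 15.5 to 41.1 with vehicle and 16.2 to 55.9 with GPI (log2 fold change 0.57, standard error 0.34, edgeR adjusted p = 0.27). It overlaps Flicr and Foxp3 on the other strand, and counting without regard to strand cannot tell reads at shared positions apart. Ppp1r3d (Entrez Gene 228966, chromosome 2 from 178411206 to 178414463) had 9.97 to 20.3 with vehicle and 7.36 to 20.3 with GPI, and its log2 fold change was -0.32 (standard error 0.41, edgeR adjusted p = 0.636). With standard errors of 0.34 to 0.41, changes of the size seen could not be told from 0 in these 3 genes.

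Ppp1r3g, a subunit known from liver (Entrez Gene 76487, chromosome 13 from 35967906 to 35970388), did not pass the low-count filter. Its raw counts were 7, 6, 6, 0 and 3 with vehicle and 2, 0, 0, 0 and 0 with GPI. A count of 0 allows up to 3 counts in a library, or 0.192 to 0.262 CPM in the GPI testes of M2 to M5, a limit that covers counting error only. With no low-count filter Ppp1r3g was not called (log2 fold change -3.48, standard error 1.54, unadjusted p = 0.0305 and adjusted p = 0.133 by edgeR, lower in 4 of 5 mice). With 4 GPI testes at 0, that fold change depends on the prior count and is no bound.

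Laforin and malin were not called. A pseudogene, Rpl17-ps11, lies within Epm2a on the other strand. Epm2a (Entrez Gene 13853, plus strand of chromosome 10 from 11343445 to 11457477) had 12.3 to 40.6 normalized counts with vehicle and 7.36 to 24.3 with GPI, and its fitted log2 fold change was -0.23 (standard error 0.38, edgeR adjusted p = 0.735, lower in 3 of 5 mice). Nhlrc1 (Entrez Gene 105193, minus strand of chromosome 13 from 47012557 to 47014850) had 35.4, 19.1, 60.3, 30.9 and 51 with vehicle and 39.2, 51.9, 39.9, 16.8 and 27.2 with GPI. It was higher with GPI in M1 and M2 and lower in M3, M4 and M5 (log2 fold change -0.18, standard error 0.36, edgeR adjusted p = 0.787). Without M5 its log2 fold change was 0.02. Epm2aip1, which encodes a protein that binds laforin, had a mean level per length of 26.1 CPM per kilobase in vehicle testes. It had 2157 to 2410 normalized counts with vehicle and 2579 to 2891 with GPI. The groups did not overlap, and Epm2aip1 rose by 0.23 on the log2 scale (standard error 0.07, edgeR adjusted p = 0.0231, higher in 5 of 5 mice). The call was lost without M1, M3 or M5 (edgeR adjusted p of 0.101, 0.0818 and 0.0667) and with scaling by total counts alone (0.0756). In the same order, the log2 fold changes of Epm2aip1 in these fits were 0.19, 0.23, 0.22 and 0.18.

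**Figure D3:**
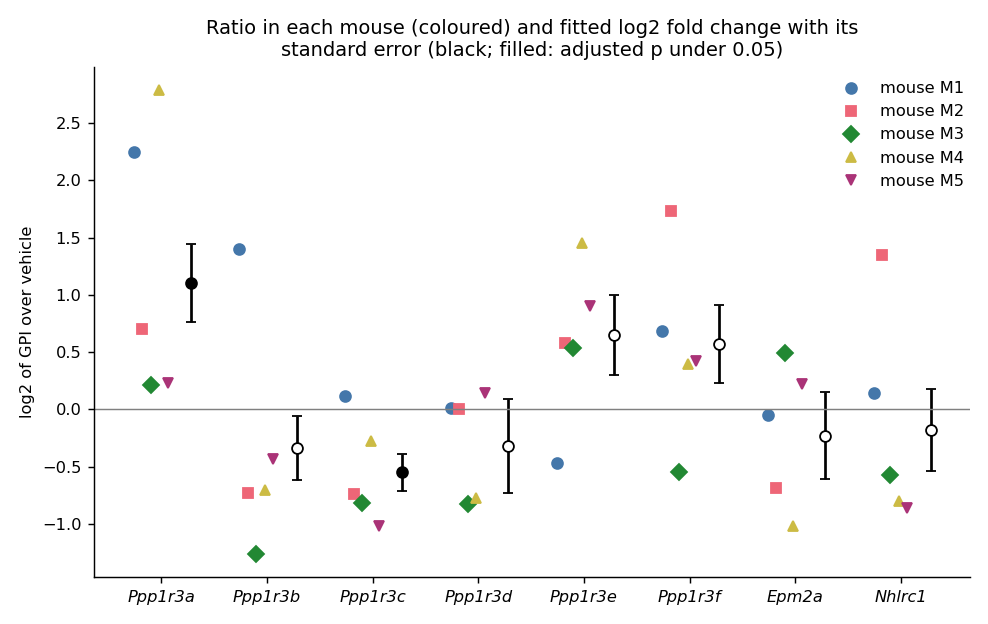
Log2 ratio of the GPI over the vehicle testis in each mouse (colored symbols) for the 8 tested genes, with the fitted log2 fold change and its standard error in black. Ppp1r3a lies above 0 in 5 mice, while Ppp1r3b and Ppp1r3c lie below 0 in 4 mice and above it in M1.

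Ratios within single mice show how far the genes went separate ways. Ppp1r3c had log2 ratios of 0.12, -0.74, -0.82, -0.28 and -1.02 in M1 to M5, and Ppp1r3b 1.40, -0.73, -1.26, -0.70 and -0.43. In both genes M1 alone had a ratio above 0. For Ppp1r3a the ratios were 2.25, 0.70, 0.21, 2.79 and 0.23. Of the 8 tested genes, 6 were higher with GPI in M1, 4 in M2, 3 in M3, 3 in M4 and 5 in M5. They thus did not all move the same way in any mouse. Ppp1r3d was counted as higher in M1 and lower in M2 with log2 ratios of only 0.01 and 0.00. Over all tested genes the median log2 ratio was 0.01 or 0.02 in each mouse.

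**Figure D4:**
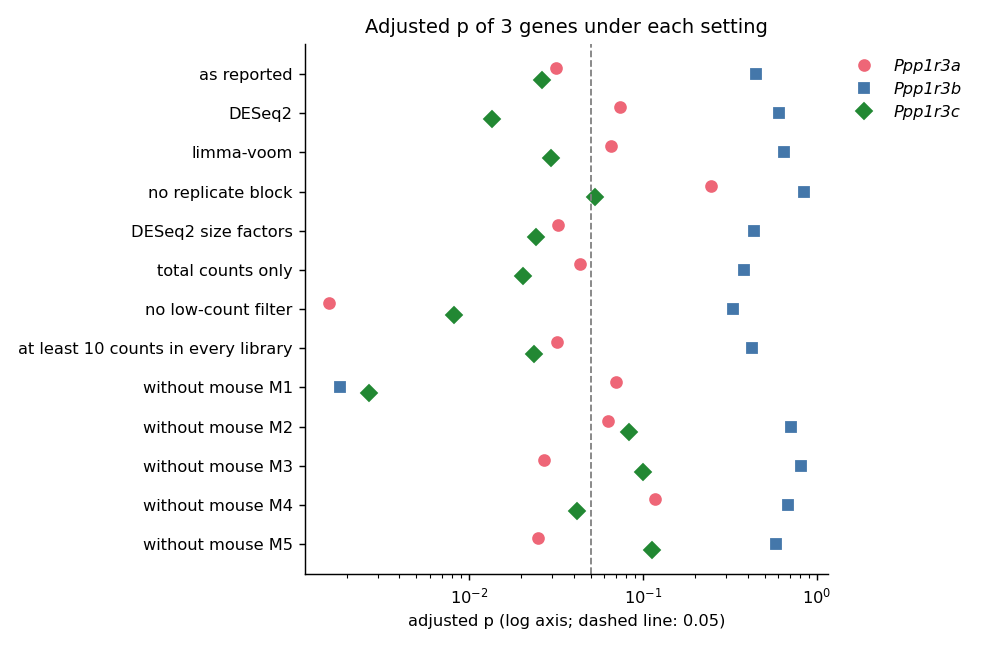
Adjusted p (horizontal log axis) of Ppp1r3a, Ppp1r3b and Ppp1r3c as reported and under 12 other settings (vertical axis), with a dashed line at 0.05. Ppp1r3b lies under the line only without mouse M1, at 0.00182, and without the replicate block both called genes lie above it, at 0.246 and 0.0531.

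For each tested gene, the 3 genes with the most similar pattern were found as those with the smallest root mean square difference of centered log2 scaled counts over the 10 libraries, a description with no test. For Ppp1r3c these were Prkab2, P2ry1 and Kdm3a, each at 0.15. For Ppp1r3b they were Plekha2 (0.29), the lactate transporter gene Slc16a3 (0.32) and the enolase gene Eno1 (0.32). Ppp1r3a was nearest to Sybu (0.51), the steroidogenic enzyme gene Hsd3b1 (0.54) and Acsbg1 (0.56). Nearest to Ppp1r3d were Zfp979 (0.25), Il15 (0.25) and Dnaaf5 (0.26), and to Ppp1r3e 2210408I21Rik (0.20), Lacc1 (0.22) and Acad8 (0.23). Ppp1r3f was nearest to Rapgefl1 (0.28), Gm4425 (0.30) and Pwwp2b (0.34). For Epm2a they were Rarb (0.25), Zfp64 (0.27) and Map11 (0.29), and for Nhlrc1 Mir7669 (0.29), Snord2 (0.29) and Ttc12 (0.30). No member was among the 3 nearest genes of another. For scale, the root mean square of a gene's own centered values was 1.18 for Ppp1r3a, 0.68 for Ppp1r3b and 0.39 for Ppp1r3c. It was 0.42 for Ppp1r3d, 0.48 for Ppp1r3e, 0.61 for Ppp1r3f, and 0.54 for Epm2a and for Nhlrc1.

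The PP1 catalytic subunits that the targeting subunits bind had mean vehicle levels per length of 78.3 (Ppp1cb), 44.9 (Ppp1ca) and 20.9 (Ppp1cc) CPM per kilobase, each above that of Ppp1r3c. Ppp1cb was not called (log2 fold change 0.06, edgeR adjusted p = 0.71), nor was Ppp1ca (-0.14, edgeR adjusted p = 0.352). Without M2, Ppp1cb was at -0.07. Ppp1cc had 722, 634, 613, 634 and 604 normalized counts with vehicle and 463, 516, 534, 463 and 522 with GPI. The groups did not overlap, and Ppp1cc fell by 0.36 on the log2 scale (standard error 0.10, edgeR adjusted p = 0.0142, lower in 5 of 5 mice). Without M4 its adjusted p was 0.0628 by edgeR.

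In all, 33 other genes of glycogen metabolism were examined, 30 of them tested, and 7 were called, 5 higher and 2 lower with GPI. These make 23.3% of the 30, beside 22.9% of all tested genes, and their median log2 fold change was -0.02. Glycogen synthase Gys1, the main enzyme on which the targeting subunits act, had 405, 413, 288, 284 and 298 normalized counts with vehicle and 654, 317, 211, 228 and 312 with GPI (log2 fold change -0.07, edgeR adjusted p = 0.804). Gys1 shares positions with Ruvbl2, Ppp1ca with Rad9a, Prkab1 with Gm14508 and Phkb with Gm16167, each on the other strand. Counting without regard to strand cannot tell reads at those positions apart. Gys2, the liver synthase, had at most 2.23 and was not tested. Of the phosphorylases, the targets of GPI, none was called: Pygb was at 0.15 (edgeR adjusted p = 0.299), Pygl at -0.39 (0.0608) and Pygm at -0.39 (0.353), as log2 fold changes. Pygl had 657 normalized counts in the GPI testis of M1 and 235 to 336 in the other GPI testes, and without M1 it was called at -0.57 (edgeR adjusted p = 0.00364). Pygl was also called by DESeq2 (adjusted p = 0.0421), with scaling by total counts alone (0.0388, edgeR) and with no low-count filter (0.0276, edgeR), and its adjusted p ran from 0.00364 to 0.38 over the 12 alternatives. The GPI testis of M1 was singled out after the values were seen. It held the highest normalized count of the 10 libraries for 2 of the 8 tested family, laforin and malin genes (Ppp1r3b and Ppp1r3c), for 8 of the 30 other glycogen genes, Gys1 and Pygl among them, and for 11.5% of all tested genes. It was also the lowest of the 5 GPI testes for 2 of the 8 (Ppp1r3a and Ppp1r3e), for 5 of the 30, Pygb and Phkb among them, and for 26.8% of all tested genes.

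Glycogenin, Gyg, which primes new glycogen, rose by 0.36 on the log2 scale (edgeR adjusted p = 0.0269). Among subunits of phosphorylase kinase, which activates phosphorylase, Phka1 rose by 0.39 (edgeR adjusted p = 0.0272) and Phkb by 0.37 (edgeR adjusted p = 0.00829). Of the AMP-activated kinase subunits, Prkaa2 rose by 0.79 (edgeR adjusted p = 0.00311) and Prkab1 fell by 0.60 (edgeR adjusted p = 0.0103), and both calls held without any 1 mouse. Gyg lost its call without M1, M2, M3 or M4 (edgeR adjusted p of 0.0531, 0.0586, 0.0901 and 0.1), Phka1 without M2, M3, M4 or M5 (0.063, 0.151, 0.0877 and 0.0533), and Phkb without M3 or M4 (0.0517 and 0.0537). Without 1 mouse, log2 fold changes were 0.32 to 0.39 for Gyg, 0.31 to 0.44 for Phka1 and 0.29 to 0.43 for Phkb. With scaling by total counts alone, Gyg and Phka1 were at 0.31 and 0.33 (edgeR adjusted p of 0.0613 and 0.0514). The number of calls among the 30 genes fell to 3 without M3 and to 3 without M4. Over all tested genes, calls also fell, from 3198 to 2316 without M3 and to 2311 without M4.

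**Figure D5:**
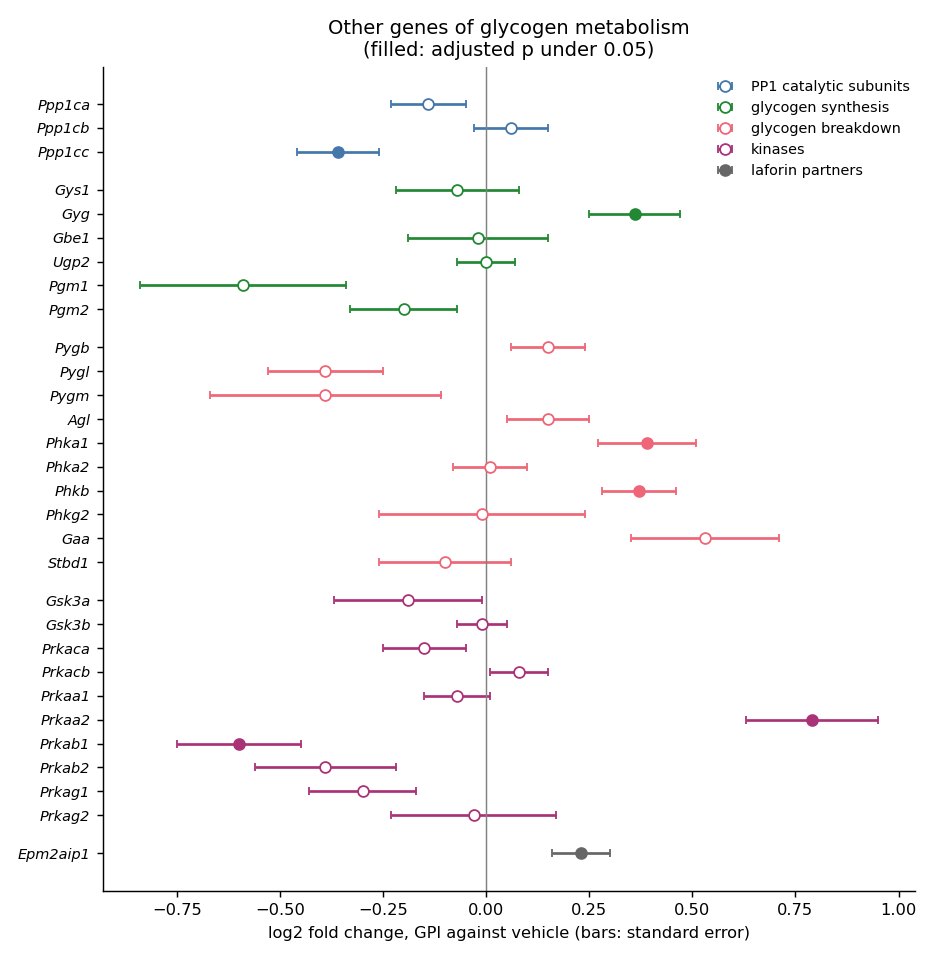
Log2 fold change with its standard error (horizontal axis) for the 30 tested genes of glycogen metabolism outside the family, colored by list, filled where the adjusted p was under 0.05. The 7 filled points run from Prkab1 at -0.60 to Prkaa2 at 0.79.

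Among 37 other entries named as PP1 regulators (Ppp1r followed by a number), 24 were tested and 4 called (16.7%, beside 22.9% of all tested genes), with a median log2 fold change of -0.07. The 4 were named after their values were seen. Ppp1r18 fell by 1.15, Ppp1r2 (inhibitor 2) by 0.60 and Ppp1r13b by 0.43 on the log2 scale, and Ppp1r9a (neurabin) rose by 0.28, with edgeR adjusted p of 1.01e-05, 0.000212, 0.00438 and 0.0112. Ppp1r18 and Ppp1r13b overlap Ppp1r18os and Zfyve21 on the other strand. Ppp1r9a was not called without M3 or M4 (edgeR adjusted p of 0.0757 and 0.0611).

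Cell type markers were read as CPM per kilobase to see which cells the testes held. Sertoli cell markers summed to 169, 272, 209, 267 and 284 with vehicle and 168, 352, 369, 482 and 356 with GPI. Of the 11 genes, 8 were called higher and 0 lower, and Aard was the most abundant. Amh, Cst9 and Fgf9 were not called, with log2 fold changes of 0.08, -0.19 and -0.33. Germ cell markers summed to 48.2, 103, 68.6, 89.4 and 34.5 with vehicle and 5.41, 4.22, 1.07, 1.32 and 3.54 with GPI. All 7 tested of 8 fell, Dppa3 was the most abundant, and Pou5f1, Mael and Sycp1 were at 0 in some libraries. Endothelial markers summed to 134, 141, 125, 146 and 129 with vehicle and 13.4, 16.9, 11.6, 9.23 and 11.6 with GPI, all 6 fell, and Cdh5 was the most abundant. Macrophage and blood markers, led by Hbb-bs, summed to 49.4, 89.3, 167, 170 and 126 with vehicle and 15.8, 12.7, 11, 7.99 and 24.6 with GPI. Of these 6 genes, 5 were called lower. The part of these cell types in the fall of Ppp1r3c was not tested.

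For the remaining lists, sums are given as ranges over the testes. Interstitial markers, led by Nr2f2, summed to 220 to 276 with vehicle and 210 to 260 with GPI (1 of 4 called higher, 2 called lower). Pre-granulosa markers, led by Rspo1, summed to 36.7 to 46.5 and 23.8 to 37.5 (1 of 4 called lower, median log2 fold change of the 4 -0.36). Smooth muscle markers, led by Acta2, summed to 46.6 to 64.8 and 43.8 to 62, and 0 of 3 were called, by edgeR. Mesonephros markers, led by Pax8, summed to 1.29 to 10.4 and 2.13 to 4.75, with Pax2 and Lhx1 untested and 0 in some libraries. Hepatocyte markers, led by Alb, summed to 0.0912 to 0.278 and 0.0759 to 0.473.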

How the data were processed

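RNA of 10 cultured testes, 5 with vehicle and 5 with GPI, was measured. Per the labels and the study's methods, the authors aligned reads to mm10 using STAR 2.5, counted them per gene with featureCounts (Subread 1.5.0-p1) without using strand, and deposited raw counts, used as they stand. Libraries held 10203679 to 15635322 counts. Without molecular identifiers these are not independent molecules, so precision comes from the spread between mice. The 20 pairs of libraries of 1 treatment differed beyond sampling noise (chi-square per degree of freedom 6.42 to 27.8 over genes whose summed count was 100 or more).

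Genes passing filterByExpr (minimum count 10, minimum total 15), 13941 in number, were tested with edgeR's quasi-likelihood test, TMM scaling, a design of mouse and treatment, and Benjamini-Hochberg adjustment over all of them. Standard errors are the size of the log2 fold change over the root of F. The gonads of 1 animal share its number in the labels, and deviations from the treatment mean correlated at 0.06 on average within a mouse and -0.015 between mice. Normalized counts are counts over a library's effective size, times the mean effective size. Lengths are those of the longest GENCODE M21 transcript (alternative: the union of exons). Single-mouse ratios used a prior count of 2 (alternative: 0.5). As alternatives, each mouse was left out, the filter was dropped or set to at least 10 counts per library, the scaling was by total counts or DESeq2 size factors, the test was limma-voom or DESeq2, and the replicate block was dropped. The procedure was tested on simulated data.

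Genes and lists were chosen with earlier results of these data known. Named were all 9 genes, the PP1 catalytic subunits, synthases and phosphorylases, and pathway genes called as reported or without the replicate block. Also named were the 3 nearest profiles per gene, and for each marker list its most abundant gene and those at 0. The tools used were edgeR 4.0.16, DESeq2 1.42.0 and limma 3.58.1 in R 4.3.3, with pandas 2.3.3 and matplotlib 3.10.9.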

Additional observations from a re-analysis of the deposited data

Results flagged for a closer look

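For each of the 9 genes and each treatment, it was asked whether 1 testis stood far from the other 4. There were 18 such groups, and chance picks about 1 in 20. In the GPI group, Ppp1r3f had 16.2 normalized counts in M3 and 45.2 to 55.9 in the other mice, a gap of 0.731 of the whole range. Ppp1r3g had 2.24 normalized counts in the GPI testis of M1, which is 2 raw counts, and 0 in the other 4. With 4 values at 0 any count above 0 is picked out, so it says nothing about how far that testis stood from the rest.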

How the results depend on the processing

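Over 12 alternatives, the 8 tested genes gave 94 fold changes beside those reported, of which 82 kept their direction and their side of the threshold. Of the 8 genes, 1 was called by DESeq2, 1 by limma-voom and 0 without the replicate block, where 1 had an unadjusted p under 0.05 in edgeR. Over all 13941 tested genes these settings called 3187, 3287 and 3108, beside 3198 as reported. Ppp1r3a had log2 fold changes of 1.22 with DESeq2, 0.83 with limma-voom and 0.82 without the replicate block, and Ppp1r3c -0.50 without the block, all with an adjusted p above 0.05. Without the block, Gys1 was at 0.03. The glycogen genes and PP1 regulators named in the Results, outside the 9, kept their side of the threshold there. Dropping the block also added calls of Gaa, for 8 other glycogen genes in all, and of Ppp1r11, for 5 other PP1 regulators. With the block, Gaa and Ppp1r11 each had an edgeR adjusted p of 0.0529. Calls of marker genes were not compared between alternatives. With no low-count filter 7 of the other PP1 regulators were called, beside 3472 of 20287 genes over all. Leaving out each mouse in turn, calls ran from 0 to 2 among the 9 genes, from 3 to 8 among the other glycogen genes and from 2311 to 3082 over all genes. In these fits the log2 fold change ran from 0.71 to 1.40 for Ppp1r3a, -0.79 to -0.14 for Ppp1r3b, -0.74 to -0.43 for Ppp1r3c, -0.45 to -0.18 for Ppp1r3d, 0.43 to 0.91 for Ppp1r3e, 0.28 to 0.80 for Ppp1r3f, -0.42 to -0.03 for Epm2a, -0.55 to 0.02 for Nhlrc1, -0.23 to -0.09 for Ppp1ca, -0.07 to 0.09 for Ppp1cb, -0.28 to 0.01 for Gys1, 0.04 to 0.20 for Pygb, -0.57 to -0.27 for Pygl and -0.62 to -0.17 for Pygm. Each such fit had fewer samples, and the cause of these differences was not tested. With 0 of 8 called in edgeR without M2, beside 3006 of 13962 genes over all, 2 had an unadjusted p under 0.05. With the union of exons, the vehicle share of Ppp1r3b was 21.3% and that of Ppp1r3c 49%, and Ppp1r3c led in all 10 testes. A prior count of 0.5 moved 3 of 45 single-mouse ratios by more than the SD of that gene's 5 ratios, those of Ppp1r3g in M2, M3 and M5. Asking for 10 counts or more in each library left Ppp1r3d and Epm2a without a value. With no low-count filter Ppp1r3g was tested and not called (adjusted p = 0.133, edgeR). For the other tested genes, the parts of low counts and of spread between mice in the standard errors were not told apart.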
